A study of Mus musculus with 11 samples.

Results

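The 10 genes described here encode enzymes and carriers of mitochondrial fatty acid oxidation and were chosen by name, as Cpt1a, Cpt1b, Slc25a20, Cpt2, Acadvl, Acadl, Acadm, Hadha, Hadhb and Acaa2, out of 22608 genes in a table of heart transcripts. All 10 were found in the table and all 10 passed the filter on low counts. In short, Cpt1b and Acadl were lower in hearts of vehicle-treated CD mice than in vehicle-treated WT mice, Cpt1b, Hadha and Acadl were higher in CD mice given JZL184 than in CD mice given vehicle, and Cpt1b and Acadl were lower in WT mice given JZL184 than in WT mice given vehicle. The genotype by JZL184 interaction passed the test for Cpt1b, Hadha, Acadl, Cpt2 and Acadm. Of all 11319 tested genes, 25.3% had a positive and 26.2% a negative interaction that passed. Among vehicle-treated mice, 15.4% of them were lower in CD than in WT. With JZL184 against vehicle, 16.8% were higher within CD mice and 14.0% lower within WT mice. Several of the enzymes' calls depended on single mice. With single mice left out, the log2 interaction ran from 0.37 to 0.62 for Cpt2 and from 0.40 to 0.66 for Acadm.

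Hearts of 11 male mice were sequenced in 4 groups, namely WT VEH (2 vehicle-treated WT mice), WT JZL184 (3 WT mice that received JZL184), CD VEH (3 vehicle-treated CD mice) and CD JZL184 (3 CD mice that received JZL184). CD mice, the WBS-CD strain of the labels, lack 1 copy of the interval from Gtf2i to Fkbp6 in every cell and model Williams-Beuren syndrome, and the WT mice were their littermates on the C57BL/6J background, aged 8 to 16 weeks. JZL184 inhibits monoacylglycerol lipase, which breaks down the endocannabinoid 2-arachidonoylglycerol, and was injected at 8 mg/kg daily for 10 days. The labels name the tissue as heart and ventricle and call the control mice untreated, whereas their titles give vehicle, and nothing in the sources used here says whether animals were pooled.

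Fatty acids enter mitochondria as acylcarnitines. Carnitine palmitoyltransferase 1 on the outer membrane, a carrier in the inner membrane and carnitine palmitoyltransferase 2 form this shuttle, and malonyl-CoA inhibits its first step. Inside, acyl-CoA dehydrogenases of different chain-length preference, the trifunctional protein and a thiolase shorten the chain to acetyl-CoA. The adult heart draws most of its energy from this route, and PPAR alpha, the estrogen-related receptors and their coactivator PGC-1 alpha are known activators of its genes.

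The deposited values were estimated counts, with 69660329 to 92251550 counts per mouse, and 3 counts corresponded to 0.0306 to 0.0435 CPM. CPM here are counts relative to library size with TMM scaling, and this floor covers counting error only. Between 36.4% and 46.6% of a library came from the mitochondrial genome. Of 25 genes of the deleted interval in the table, 14 were tested, and for all 14 the CD mice lay below the WT mice without overlap. No such check was made of the JZL184 treatment, so each treatment comparison and the interaction rest on the treatment labels as given. None of the 10 enzymes lies in that interval, and mice are named by the letters in the column headers, which are in no sample label.

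By level per kilobase of the longest coding transcript in WT VEH hearts, the thiolase subunit of the trifunctional protein, Hadhb, stood first with 869 CPM per kilobase, and Cpt1a stood last with 8.02. Between them came Acadm with 466, Acaa2 with 416, Acadvl with 387, Acadl with 368, Hadha with 234, Cpt1b with 174, Slc25a20 with 78.9 and Cpt2 with 65.7 CPM per kilobase. Over the 11 mice the ranges of Acadm, Acaa2, Acadvl and Acadl overlapped with their neighbours in this order, as did those of Hadha and Cpt1b and those of Slc25a20 and Cpt2, whereas Hadhb and Cpt1a overlapped with no other member. This order depends on the transcript chosen. On the second-longest annotated transcript of each gene, coding or not, Hadha would stand at 369, Cpt1b at 599, Acadm at 1037, Acadl at 1085 and Acaa2 at 1251 CPM per kilobase, the last 3 of these above Hadhb. Of the counts outside the mitochondrial genome, the 10 genes together took 1.10% and 1.14% in the WT VEH mice, 0.926% to 1.15% in the WT JZL184 mice, 0.970% to 1.13% in the CD VEH mice and at least 1.16% in each CD JZL184 mouse.

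**Figure D1:**
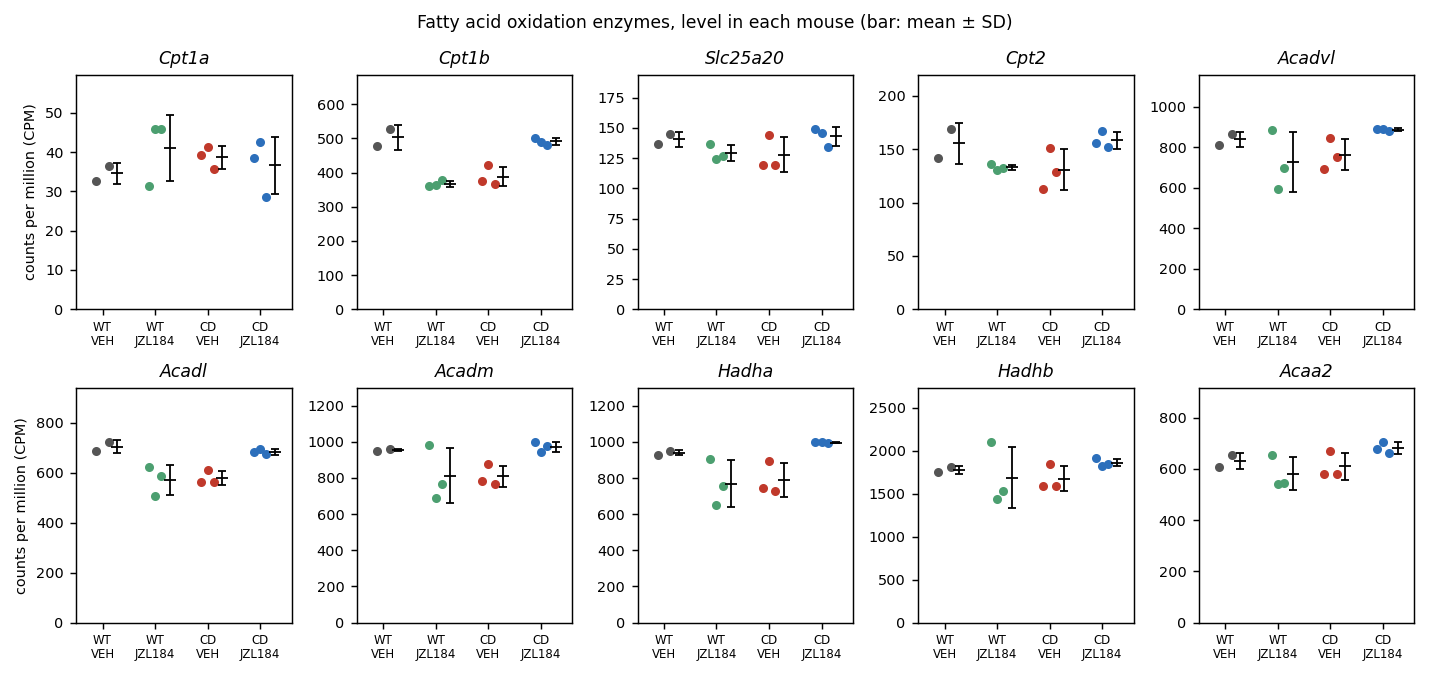
Level of the 10 enzymes in CPM (vertical axes, starting at 0) in each mouse (points) by group (horizontal axes), with the group mean ± SD beside the points (n = 2 for WT VEH, n = 3 for the others). Cpt1b in WT JZL184 and CD VEH, 360 to 421 CPM, lies below the other groups, 478 to 529 CPM, whereas Cpt1a overlaps in all groups.

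Promoter windows from RefSeq on GRCm38.p6, 250 bases before to 50 bases after a gene's start, were at hand for 8 of the 10 members and not for Cpt1b and Acaa2. They are shown for 4 members that the results turn on: Acadl, which differed between groups, Acadm, which passed the test of the interaction, Hadhb, whose window shares 228 bases with that of its head-to-head partner Hadha, and Cpt1a, the 1 member whose level correlated negatively with the others. Capitals mark, on either strand, the nuclear receptor half-site AGGTCA and the GC box GGGCGG, each read 5′ to 3′ on the strand of the gene.
Acadl promoter window, chr1:66863260-66863559, minus strand: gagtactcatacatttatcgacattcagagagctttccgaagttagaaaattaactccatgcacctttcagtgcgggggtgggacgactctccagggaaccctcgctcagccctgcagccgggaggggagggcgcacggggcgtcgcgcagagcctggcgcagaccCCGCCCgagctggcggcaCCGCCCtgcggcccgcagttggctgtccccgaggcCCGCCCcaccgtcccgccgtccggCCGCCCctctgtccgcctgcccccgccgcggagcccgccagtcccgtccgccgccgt
Acadm promoter window, chr3:153944594-153944893, minus strand: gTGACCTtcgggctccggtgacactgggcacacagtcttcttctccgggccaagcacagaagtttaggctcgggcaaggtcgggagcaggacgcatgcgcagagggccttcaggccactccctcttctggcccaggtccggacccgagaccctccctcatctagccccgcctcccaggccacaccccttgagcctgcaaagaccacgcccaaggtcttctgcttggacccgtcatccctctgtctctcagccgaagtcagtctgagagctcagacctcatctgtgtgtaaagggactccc
Hadhb promoter window, chr5:30155003-30155302, plus strand: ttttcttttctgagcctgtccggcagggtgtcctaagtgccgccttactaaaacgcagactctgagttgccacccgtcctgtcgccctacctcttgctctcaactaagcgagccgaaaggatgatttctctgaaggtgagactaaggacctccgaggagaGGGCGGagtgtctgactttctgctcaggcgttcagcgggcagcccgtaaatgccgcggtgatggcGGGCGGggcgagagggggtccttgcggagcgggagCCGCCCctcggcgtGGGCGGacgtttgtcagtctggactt
Cpt1a promoter window, chr19:3323051-3323350, plus strand: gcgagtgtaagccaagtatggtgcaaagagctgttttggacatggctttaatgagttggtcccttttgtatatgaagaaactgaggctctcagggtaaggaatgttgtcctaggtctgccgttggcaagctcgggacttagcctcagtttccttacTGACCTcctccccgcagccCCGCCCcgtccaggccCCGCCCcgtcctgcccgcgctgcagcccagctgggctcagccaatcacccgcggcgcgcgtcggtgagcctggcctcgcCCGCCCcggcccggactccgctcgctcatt
AGGTCA occurred on either strand in 3 of the 8 members, Acadm, Acadvl and Cpt1a, and in 16.3% of all 32851 windows of this length. GGGCGG occurred in 6 of the 8, with 4 matches each in Acadl and Hadhb and 3 each in Cpt1a, Cpt2 and Slc25a20, against 35.7% of all windows. The extended half-site TCAAGGTCA, present in 0.423% of windows and overlapping AGGTCA by construction, and a direct repeat of AGGTCA with a 1-base spacer, present in 13 windows of the table, occurred in none of the 8. A match is a description of the letters in this window only. The Cpt1a window lies inside the gene as GENCODE annotates it, from a start further downstream.

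Cpt1b, the muscle form of carnitine palmitoyltransferase 1 (chr15:89416405-89425863, minus strand), was at 478 and 529 CPM in WT VEH mice C and D and at 376, 421 and 368 CPM in CD VEH mice A, C and E. With JZL184 it was at 360, 364 and 377 CPM in WT mice A, B and D and at 502, 491 and 482 CPM in CD mice A, C and E. Both vehicle-treated WT mice and all CD JZL184 mice thus lay above all mice of the other groups. The log2 fold-change was -0.37 ± 0.08 (SE) in CD VEH versus WT VEH (edgeR adjusted p = 0.00731), -0.46 ± 0.08 with JZL184 in WT mice (adjusted p = 0.00369) and 0.34 ± 0.07 with JZL184 in CD mice (adjusted p = 0.00568). Without WT VEH mouse D the first of these had an adjusted p of 0.0747. The gene Gm44502 shares 81.4% of the exon bases of Cpt1b on the same strand in GENCODE and was not analysed here, so the split of reads between them is uncertain.

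Cpt1a, the form that predominates in liver (chr19:3322334-3385733, plus strand), was at 32.7 and 36.5 CPM in WT VEH, 31.3, 46.0 and 46.0 in WT JZL184, 39.2, 41.4 and 35.6 in CD VEH and 38.6, 42.7 and 28.7 in CD JZL184. All 4 groups overlapped, and no comparison of Cpt1a passed the test (edgeR adjusted p 0.266 to 0.909 over the 6 comparisons). Its share of Cpt1a plus Cpt1b, per length, does not depend on the scaling of a library. This share was 4.39% and 4.43% in WT VEH mice, 5.51% to 7.81% in WT JZL184, 6.09% to 6.54% in CD VEH and 3.84% to 5.51% in CD JZL184. The CD VEH mice lay above both WT VEH mice, by a mean of 1.86 percentage points, and above all CD JZL184 mice, by 1.52 percentage points. Two-sided exact permutation tests gave p = 0.2 and p = 0.1, the smallest values these group sizes allow.

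The inner-membrane carnitine-acylcarnitine carrier Slc25a20 (chr9:108662088-108684641, plus strand) ranged from 119 to 149 CPM over all mice, and none of its comparisons passed the test. Cpt2, which returns the acyl group to CoA in the matrix (chr4:107903981-107923610, minus strand), was at 142 and 169 CPM in WT VEH, 136, 131 and 132 in WT JZL184, 113, 151 and 129 in CD VEH and 156, 167 and 152 in CD JZL184. All CD JZL184 mice lay above all CD VEH mice, narrowly so against mouse C. The log2 fold-change of Cpt2 between them, 0.27 ± 0.10, missed the threshold (edgeR adjusted p = 0.0509), and that in CD VEH versus WT VEH was -0.25 ± 0.11 (adjusted p = 0.102). Its interaction passed the test and is given with the other interactions.

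Among the acyl-CoA dehydrogenases, Acadl, of long-chain preference (chr1:66830839-66863277, minus strand), was at 686 and 722 CPM in WT VEH and at 563, 611 and 563 CPM in CD VEH. With JZL184 it was at 623, 507 and 585 CPM in WT and at 680, 694 and 672 CPM in CD mice. As for Cpt1b, both WT VEH mice and all CD JZL184 mice lay above all others. The log2 fold-change of Acadl was -0.28 ± 0.09 in CD VEH versus WT VEH (edgeR adjusted p = 0.035), -0.30 ± 0.09 with JZL184 in WT mice (adjusted p = 0.0281) and 0.24 ± 0.08 with JZL184 in CD mice (adjusted p = 0.0417). These calls were close to the threshold, and 4 to 7 of the 14 or 15 alternatives of each left it above 0.05, up to 0.184 for the first without WT VEH mouse D.

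Acadm, of medium-chain preference (chr3:153922357-153944632, minus strand), was at 951 and 957 CPM in WT VEH, 981, 689 and 766 in WT JZL184, 785, 875 and 767 in CD VEH and 999, 944 and 974 in CD JZL184. WT JZL184 mouse A lay at the level of the CD JZL184 mice, well above mice B and D of its own group. The log2 fold-changes of Acadm were -0.24 ± 0.12 in CD VEH versus WT VEH (edgeR adjusted p = 0.161), -0.23 ± 0.12 with JZL184 in WT mice (0.174) and 0.27 ± 0.11 with JZL184 in CD mice (0.0854), and none passed the test. Acadvl, the very-long-chain enzyme of the inner membrane (chr11:70010183-70015411, minus strand), was at 811 and 866 CPM in WT VEH, 885, 593 and 697 in WT JZL184, 694, 844 and 751 in CD VEH and 892, 892 and 879 in CD JZL184. It passed no comparison either, and mouse A of WT JZL184 again lay with the higher groups. Acadvl shares 1151 exon bases with Dvl2 on the opposite strand, which had 4877 counts over the 11 mice against 726648 for Acadvl, and whether the libraries kept the strand is not stated in the sources used here.

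Hadha and Hadhb encode the alpha and beta subunits of the trifunctional protein, which carries out the last steps of the cycle for long chains. The genes lie head to head, Hadha at chr5:30118304-30155162 on the minus strand and Hadhb at chr5:30155248-30184593 on the plus strand, with 86 bases between their annotated starts. Hadha was at 930 and 952 CPM in WT VEH, 907, 648 and 753 in WT JZL184, 743, 896 and 730 in CD VEH and 998, 999 and 992 in CD JZL184. The CD JZL184 mice were nearly alike and lay above every other mouse. The log2 fold-change of Hadha was 0.34 ± 0.11 in CD JZL184 versus CD VEH (edgeR adjusted p = 0.0409, above 0.05 in 7 of 15 alternatives) and -0.25 ± 0.13 in CD VEH versus WT VEH (adjusted p = 0.147).

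Hadhb was at 1747 and 1813 CPM in WT VEH, 2102, 1437 and 1527 in WT JZL184, 1592, 1845 and 1592 in CD VEH and 1911, 1828 and 1848 in CD JZL184. Its groups overlapped in 4 of the 5 pairwise comparisons, and none passed the test (edgeR adjusted p 0.361 to 0.910). The ratio of Hadha to Hadhb CPM within a library was 0.532 and 0.525 in WT VEH, 0.431, 0.451 and 0.493 in WT JZL184, 0.466, 0.486 and 0.458 in CD VEH and 0.522, 0.547 and 0.537 in CD JZL184. Every WT JZL184 and CD VEH mouse had a lower ratio than every mouse of the other groups, also in WT JZL184 mouse A and CD VEH mouse C, whose summed enzymes were high. The mean ratio differed by -0.0584 in CD VEH versus WT VEH and by 0.0652 in CD JZL184 versus CD VEH, with 2-sided exact permutation p = 0.2 and p = 0.1, again the smallest these group sizes allow. Over the 10 tests of both ratios the adjusted p was 0.25 at the lowest. With an offset for gene length, the difference between the subunits became smaller, with log2 fold-changes of 0.30 for Hadha (edgeR adjusted p = 0.0698) and 0.24 for Hadhb in CD JZL184 versus CD VEH.

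**Figure D2:**
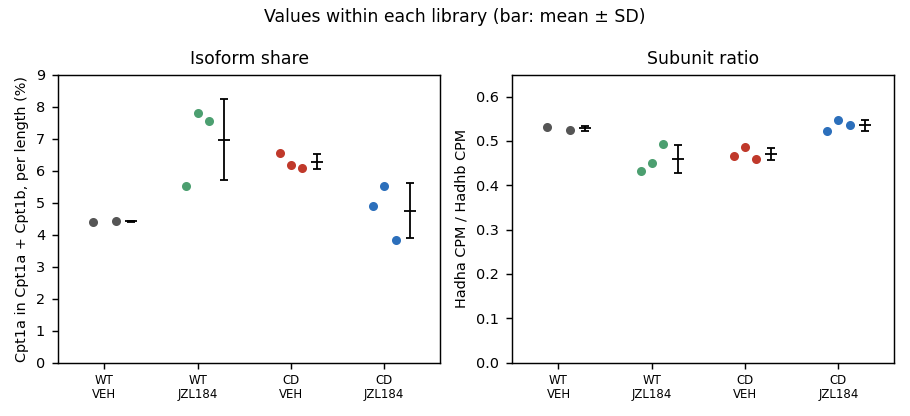
Share of Cpt1a in Cpt1a plus Cpt1b per length in percent (left) and ratio of Hadha to Hadhb CPM (right) in each mouse (points) by group, with mean ± SD beside the points (n = 2 for WT VEH, n = 3 for the others). The subunit ratio is 0.431 to 0.493 in WT JZL184 and CD VEH and 0.522 to 0.547 in the other groups.

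Acaa2, the mitochondrial 3-ketoacyl-CoA thiolase of the final step, ranged from 542 to 705 CPM over the 11 mice. Its group means were 630 ± 32.6 CPM in WT VEH (SD, n = 2), 581 ± 63.9 in WT JZL184, 609 ± 53.0 in CD VEH and 681 ± 21.7 in CD JZL184 (n = 3 each). No comparison of Acaa2 passed the test. The lowest adjusted p, 0.064, was in CD JZL184 versus WT JZL184, with a log2 fold-change of 0.23 ± 0.09 and no overlap of the groups.

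In CD VEH versus WT VEH, the median log2 fold-change of the 10 enzymes was -0.19, against 0.01 over all 11319 tested genes. The groups did not overlap for 4 of the 10, all lower in CD VEH, beside 31.5% of all tested genes that lay lower in every CD VEH mouse. By the edgeR test 2 of the 10 fell, Cpt1b and Acadl, and 0 rose, beside 15.4% of all tested genes that fell and 15.0% that rose. This count rests on single mice, since it was 0 without WT VEH mouse D, 4 without CD VEH mouse C and 1 without either CD VEH mouse A or E or WT VEH mouse C.

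In CD JZL184 versus CD VEH, 3 of the 10 rose, Cpt1b, Hadha and Acadl, and 0 fell, beside 16.8% of all tested genes that rose and 17.0% that fell. The median was 0.23, against 0.00 over all tested genes, and 6 of the 10 lay higher in every CD JZL184 mouse than in every CD VEH mouse, beside 27.2% of all tested genes. The count of enzymes that rose by the test was 5 without CD VEH mouse C and 1 without any other mouse of these groups. In WT JZL184 versus WT VEH, 2 fell, Cpt1b and Acadl, and 0 rose, beside 14.0% of all tested genes that fell and 15.4% that rose. Here the count was 7 without WT JZL184 mouse A, with 6 lower and 1 higher, and 1 without WT JZL184 mouse B or either WT VEH mouse.

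Between the JZL184-treated groups, 3 of the 10 were higher in CD than in WT mice, with log2 fold-changes of 0.42 ± 0.07 for Cpt1b (edgeR adjusted p = 0.00162), 0.37 ± 0.11 for Hadha (adjusted p = 0.024) and 0.26 ± 0.08 for Acadl (adjusted p = 0.0276). None was lower, beside 18.2% of all tested genes that were higher and 20.1% that were lower. Without WT JZL184 mouse A the count was 7, and it was 1 without WT JZL184 mouse B or any CD JZL184 mouse. In CD JZL184 versus WT VEH, edgeR called 0 of the 10, and the log2 fold-changes ran from -0.05 to 0.11. Of all tested genes, 0.0442% were higher and 0.141% lower in that comparison, 1062 genes and 0 of the 10 enzymes had an unadjusted p under 0.05, and DESeq2 also called 0 of the 10. All CD JZL184 mice nonetheless lay above both WT VEH mice for 4 of the 10, Acadvl, Hadha, Hadhb and Acaa2, and below them for 0, beside 17.7% of all tested genes that lay above. The 95% interval of Cpt1b was -0.21 to 0.14, and those of the 10 together reached from -0.30 to 0.47. The comparisons share their groups, so their values stand side by side and are not independent of each other.

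**Figure D3:**
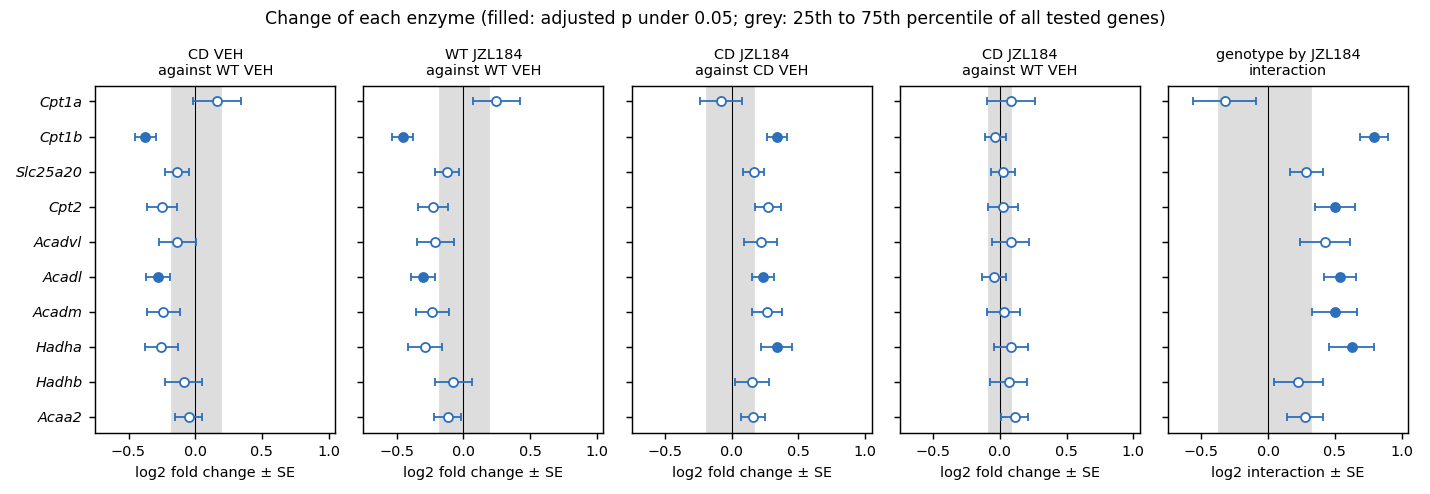
Log2 fold-change ± SE of each enzyme in 4 comparisons and, at the right, the log2 interaction ± SE (horizontal axes), with filled points for an edgeR adjusted p under 0.05 and a grey band from the 25th to the 75th percentile of all 11319 tested genes. Cpt1b and Acadl are filled in every panel but that of CD JZL184 versus WT VEH, where no point is filled and all lie between -0.05 and 0.11.

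The interaction asks whether the difference between JZL184 and vehicle was the same in CD and WT hearts. It was positive and passed the test for 5 of the 10 enzymes, and 0 were negative and passed, beside 25.3% of all tested genes with a positive and 26.2% with a negative interaction that passed. The log2 interaction was 0.80 ± 0.11 for Cpt1b (edgeR adjusted p = 0.00024), 0.63 ± 0.17 for Hadha (adjusted p = 0.00982), 0.54 ± 0.12 for Acadl (adjusted p = 0.00348), 0.50 ± 0.15 for Cpt2 (adjusted p = 0.0142) and 0.50 ± 0.17 for Acadm (adjusted p = 0.0265). Acadvl, at 0.43 ± 0.19, and Slc25a20, at 0.29 ± 0.12, missed the threshold (adjusted p = 0.0727 and 0.0691), and Cpt1a was the 1 member with a negative value, -0.33 ± 0.24. The median of the 10 was 0.46, against -0.01 over all tested genes, and Cpt1b lay at percentile 95.6 of all tested genes. The count was 9 without WT JZL184 mouse A, 8 without CD VEH mouse C and 3 without WT VEH mouse D. Cpt1b, Acadl and Hadha kept an adjusted p under 0.05 in all 19 alternatives, with the highest values, 0.00216, 0.0205 and 0.0369, without WT VEH mouse D.

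Within groups, 2 mice stood apart for most members. The summed CPM of the 10 was 6522 and 6843 in WT VEH, 6816, 5081 and 5557 in WT JZL184, 5603, 6499 and 5635 in CD VEH and 7004, 6908 and 6824 in CD JZL184, so that WT JZL184 mouse A lay within the range of WT VEH and CD VEH mouse C just below it. CD VEH mouse C had the highest level of its group for all 10 members, and so had WT VEH mouse D. For Cpt1b, WT JZL184 mouse A was the lowest of its group, as it was for Cpt1a, whereas it was the highest for the 8 other members. The spread within the JZL184 groups differed by member. The coefficient of variation of Acadvl, Acadl, Acadm, Hadha, Hadhb and Acaa2 was 0.411% to 3.18% in CD JZL184 and 10.4% to 21.4% in WT JZL184. For Cpt1b, Slc25a20 and Cpt2 it was 2.10%, 5.49% and 5.01% in CD JZL184 and 2.46%, 5.09% and 2.09% in WT JZL184, and for Cpt1a it was 19.7% and 20.7%.

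Across the 11 mice, the Pearson correlation of log2 CPM with the mean of the other members was 0.775 to 0.961 for 9 of the 10, highest for Hadha, and -0.43 for Cpt1a. The closest pair was Acadm and Hadha with r = 0.970. These values describe 11 libraries in 4 groups, and the points share library, depth and scaling. Outside the 10, the genes with at least 10 CPM whose levels followed the mean of the members most closely, of 7569 ranked, were Hsdl2 (r = 0.977), 1600014C10Rik (0.975), Polr3gl (0.972), Ldhd (0.965) and Hadh (0.964). Hadh encodes the hydroxyacyl-CoA dehydrogenase for shorter chains. Its interaction also passed the test, at 0.37 ± 0.12 (edgeR adjusted p = 0.0283), but 8 of 19 alternatives left it above 0.05, up to 0.0855 without WT VEH mouse D.

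The remaining enzymes of mitochondrial beta-oxidation, Acads, Acad9, Hadh, Echs1, Eci1, Eci2 and Decr1, moved in part with the 10. Of these 7, 2 fell in CD VEH versus WT VEH, the short-chain dehydrogenase Acads by 0.32 and Acad9, which also assembles complex I, by 0.34 on the log2 scale, and both rose in CD JZL184 versus CD VEH, with log2 fold-changes of 0.35 and 0.25. The fall of Acads had an adjusted p above 0.05 in 7 of 14 alternatives, up to 0.288 without WT VEH mouse D, and with 1 mouse left out the count of 2 ran from 0 to 3. In the interaction 4 of the 7 passed, all positive, with a median of 0.37. These and the list counts that follow stand beside the shares of all tested genes that passed. In CD VEH versus WT VEH 15.4% were lower and 15.0% higher, and in CD JZL184 versus CD VEH 16.8% were higher and 17.0% lower. In the interaction 25.3% were positive and 26.2% negative. Of the 3 genes of electron transfer to the respiratory chain, 1 passed in the interaction, Etfdh with 0.49 ± 0.14 (edgeR adjusted p = 0.0142), and none in CD VEH versus WT VEH or in CD JZL184 versus CD VEH. Of the 4 acyl-CoA dehydrogenases of branched chains and lysine, Ivd, which acts in leucine breakdown, fell in CD VEH by 0.41 and rose with JZL184 in CD mice by 0.41 on the log2 scale. Its fall missed the threshold in 4 of 14 alternatives, and with 1 mouse left out the log2 fold-change ran from -0.50 to -0.34.

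The list of fatty acid activation, carnitine and malonyl-CoA genes was mixed in direction. Of 11 genes, 4 fell and 1 rose in CD VEH versus WT VEH, 5 rose and 1 fell in CD JZL184 versus CD VEH, and 5 were positive and 2 negative in the interaction. Acsl6, a long-chain acyl-CoA synthetase, was at a mean of 13.4 ± 1.02 CPM in WT VEH (SD, n = 2), 6.56 ± 1.29 in CD VEH and 9.67 ± 0.28 in CD JZL184 (n = 3 each), and its log2 fold-change in CD VEH versus WT VEH was -1.03 ± 0.14 (edgeR adjusted p = 0.00182). Acsl5 went the other way, with a log2 interaction of -1.13 ± 0.15 (adjusted p = 0.000225). Acacb, which makes the malonyl-CoA that inhibits carnitine palmitoyltransferase 1, fell in CD VEH by 0.51 and rose with JZL184 in CD mice by 0.50 on the log2 scale, in the same direction as Cpt1b. Acsl1, the synthetase of the list with the highest level, had means of 676 CPM in WT VEH, 514 in WT JZL184, 536 in CD VEH and 686 in CD JZL184. Acacb and Acsl1 were named after their values were seen.

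Peroxisomes shorten very long chains. Of 11 tested peroxisomal genes, 1 fell in CD VEH versus WT VEH, the transporter Abcd3 by 0.33 on the log2 scale, and 4 rose in CD JZL184 versus CD VEH. In the interaction 5 of 11 passed, all positive. Of 16 genes of the TCA cycle, which takes up the acetyl-CoA, 3 fell in CD VEH, 5 rose with JZL184 in CD mice and 8 had a positive interaction. For both lists the matching shares of all tested genes were 15.4%, 16.8% and 25.3%. Of the TCA genes, Ogdh led in the interaction with 1.02 ± 0.15 (edgeR adjusted p = 0.000353). Dlst, another subunit of the same complex, had 0.57 ± 0.12.

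Of 11 regulators, 4 fell and 1 rose in CD VEH versus WT VEH, 6 rose and 1 fell in CD JZL184 versus CD VEH, and 8 were positive and 1 negative in the interaction. Ppara, the nuclear receptor for which many of these enzymes are known targets, was at 38.0 and 31.0 CPM in WT VEH, 20.97, 16.1 and 18.1 in WT JZL184, 23.5, 24.8 and 21.7 in CD VEH and 37.4, 34.1 and 39.9 in CD JZL184. The higher groups did not overlap with the lower ones. Mouse A of WT JZL184 and mouse C of CD VEH were the highest of their groups, as for most enzymes, but lay below both WT VEH mice. The log2 interaction of Ppara was 1.58 ± 0.16 (edgeR adjusted p = 9.06e-05), and its log2 fold-change was -0.57 ± 0.12 in CD VEH versus WT VEH (adjusted p = 0.00657, above 0.05 in 1 of 14 alternatives). With 1 mouse left out this fold-change ran from -0.71 to -0.41. Pparg, known from adipocytes and other cells, went the other way with an interaction of -1.18 ± 0.15 (adjusted p = 0.000213). Of 9 genes known to respond to PPARs, among them Pdk4, Ucp3 and Angptl4, 0 passed in CD VEH versus WT VEH or in CD JZL184 versus CD VEH by edgeR, also at an unadjusted p under 0.05 and by DESeq2. In the interaction 1 passed, the fatty acid transporter Cd36, with -0.31 ± 0.11 (edgeR adjusted p = 0.0415, above 0.05 in 12 of 19 alternatives). Pdk4, Ucp3 and Angptl4 varied widely within groups, at 262 to 1237, 18.2 to 86.7 and 6.85 to 47.4 CPM in CD JZL184. A change in them could thus be missed. Cd36 and Fabp3 varied less there, with coefficients of variation of 6.93% and 4.23%. With 1 mouse left out, the counts in CD VEH versus WT VEH ran from 2 to 6 for activation, 0 to 2 for the peroxisomal genes, 0 to 4 for the TCA cycle and 0 to 5 for the regulators, in both directions together. In CD JZL184 versus CD VEH they ran from 0 to 3 for the 7 remaining beta-oxidation enzymes, 4 to 6 for activation, 0 to 5 for the peroxisomal genes, 1 to 5 for the TCA cycle and 5 to 7 for the regulators. There the TCA cycle had 1 call, and the peroxisomal genes 0 to 2, when any 1 mouse of these groups other than CD VEH mouse C was left out. In the interaction the ranges were 2 to 4, 5 to 8, 2 to 6, 6 to 12 and 6 to 9 in the same order of lists, with both counts of 2 reached without WT VEH mouse D. Those of the electron transfer and branched-chain lists were 0 to 2 and 1 to 4. All these lists were chosen with results of these data known, so their counts describe the lists and test nothing beyond each gene.

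**Figure D4:**
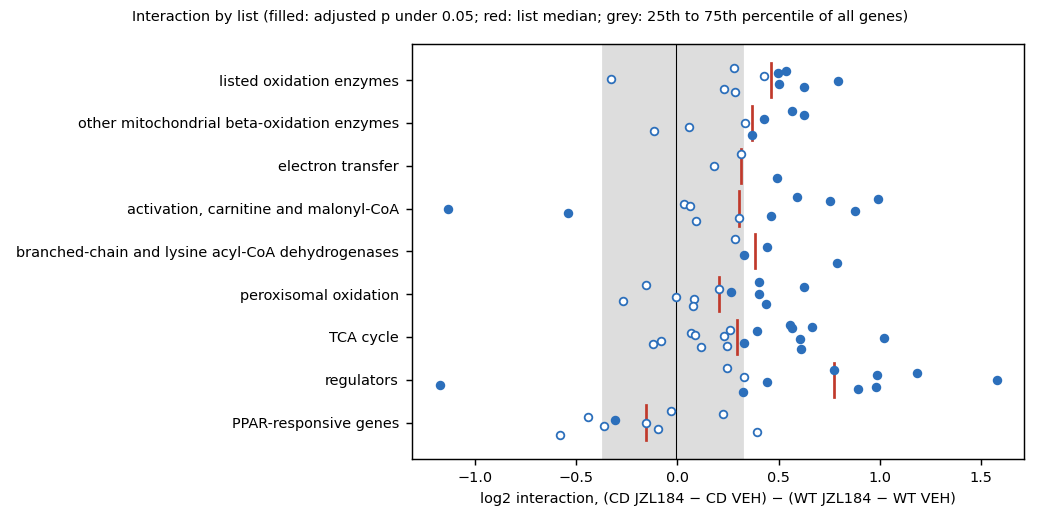
Log2 genotype by JZL184 interaction (horizontal axis) of each tested gene (points) in the 10 enzymes and 8 lists of related genes, filled for an edgeR adjusted p under 0.05, with the list median in red and the 25th to 75th percentile of all tested genes in grey. The medians are 0.46 for the 10 enzymes, 0.78 for the regulators and -0.16 for the PPAR-responsive genes.

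Markers of other heart cells moved against the enzymes. The summed CPM of 5 endothelial markers was 508 and 513 in WT VEH mice, 770 to 796 in WT JZL184, 639 to 701 in CD VEH and 501 to 582 in CD JZL184. Of these markers 5 of 5 had a negative interaction that passed the test, beside 26.2% of all tested genes. The same held for 4 of 4 macrophage markers, with sums of 74.7 to 79.2 CPM in WT VEH, 95.7 to 156 in WT JZL184, 101 to 125 in CD VEH and 69.1 to 78.5 in CD JZL184. Of the smooth muscle markers 3 of 3, of the fibroblast markers 3 of 5 and of the erythroid markers 5 of 5 had a negative interaction that passed. The sums were 77.8 to 88.9, 119 to 157, 89.7 to 99.3 and 57.2 to 72.7 CPM for smooth muscle and 638 to 659, 786 to 977, 759 to 880 and 593 to 684 CPM for fibroblasts with both WT groups first, vehicle before JZL184, and then both CD groups likewise. The erythroid sum was 18832 CPM in CD VEH mouse A, 2885 and 2032 CPM in the other CD VEH mice and 1419 to 5512 CPM in the mice of the other groups. Without CD VEH mouse A, 4 of 5 erythroid markers kept a negative interaction that passed.

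Cardiomyocyte markers were split, with 3 of 6 positive (Myh6, Actn2 and Ryr2), 1 negative (Myl2) and 2 not passing in the interaction, and with summed levels of 32020 to 32498 CPM in WT VEH, 23242 to 31708 in WT JZL184, 28060 to 30449 in CD VEH and 30829 to 32755 in CD JZL184. Relative to this sum, Cpt1b and Acadl remained lower in every CD VEH mouse than in every WT VEH mouse and higher in every CD JZL184 than in every CD VEH mouse, but the WT JZL184 and WT VEH mice overlapped. Of the 10 enzymes 3 lay below and 3 above in CD VEH versus WT VEH by this ratio, and 4 above in CD JZL184 versus CD VEH. Of all tested genes, 14.0% lay below and 52.0% above in the first comparison by the same ratio. In the second, 52.8% lay above or below, with 1247 of 11319 genes above. In CD JZL184 versus WT VEH, 5 enzymes lay above by this ratio, beside 17.4% of all tested genes. Adipocyte markers had a sum of 1.75 CPM or less and hepatocyte markers of 1.06 CPM or less. Of the 3 brown fat markers, the defining Ucp1 was at 0.193 CPM or less, Cidea was at 15.5 to 18.4 CPM, and Cox7a1, also the muscle form of a cytochrome oxidase subunit, was at 375 to 581 CPM. Cox7a1 had a negative interaction that passed the test, -0.58 ± 0.12 (edgeR adjusted p = 0.00282), and Cidea did not pass. Of the atrial markers, 2 of 3 were under 1 CPM and the sum was 49.3 to 220 CPM. In bulk hearts, fewer cells of a type and less RNA per cell cannot be told apart, and the part of the cell markers in the enzymes' values was not tested.

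The share of counts from the mitochondrial genome was 39.4% and 41.2% in WT VEH mice, 45.0% to 46.6% in WT JZL184, 43.5% to 44.7% in CD VEH and 36.4% to 40.1% in CD JZL184, so that it too was higher in the groups with lower Cpt1b. In the mean of Cpt1b, of the endothelial sum and of this share, WT JZL184 thus lay nearer to CD VEH than to WT VEH, and CD JZL184 nearer to WT VEH than to CD VEH. Transcript length also moved with the groups. Over all tested genes, log2 CPM relative to the mean of the mice changed per doubling of length by 0.05 and 0.08 in WT VEH and 0.04 to 0.08 in CD JZL184, but by -0.09 to 0.00 in WT JZL184 and -0.09 to -0.04 in CD VEH. With an offset for length, the counts were 5 enzymes higher in CD JZL184 versus CD VEH and 8 with a positive interaction, and Hadha left the first of these calls. With mitochondrial-genome genes left out, no count changed by more than 1.5 times. What part depth, RNA quality or these measures had in the values was not tested.

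**Figure D5:**
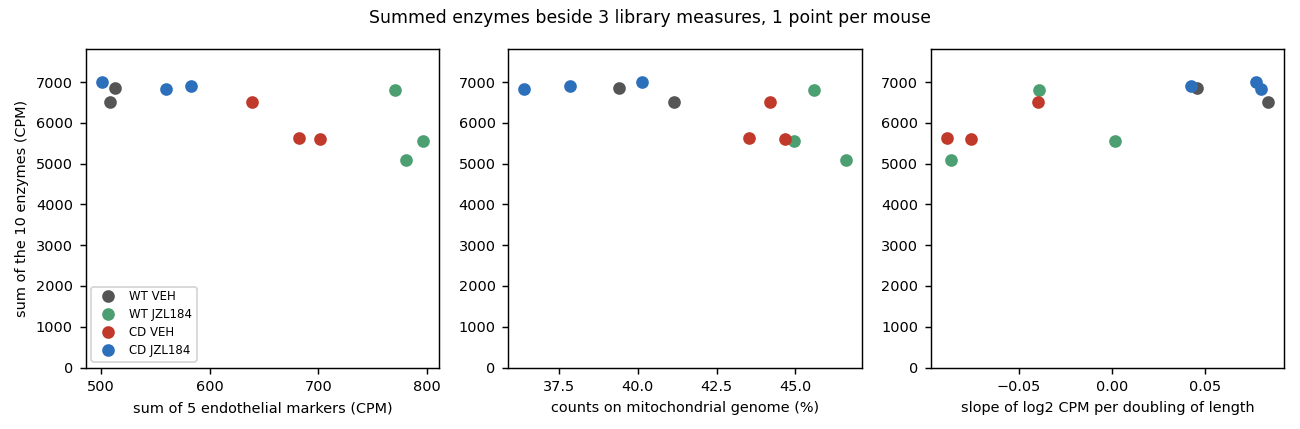
Summed CPM of the 10 enzymes in each mouse (vertical axes) beside the summed CPM of 5 endothelial markers, the percentage of counts from the mitochondrial genome and the slope of log2 CPM per doubling of transcript length (horizontal axes), colored by group. WT JZL184 mouse A, at 6816 CPM, has a high enzyme sum with 770 CPM of endothelial markers and 45.6% mitochondrial counts.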

How the data were processed

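RNA from hearts of 11 mice was sequenced on a HiSeq3000 instrument after TRIZOL extraction. The authors deposited 1 table of estimated counts per gene, not normalized, from Salmon 0.7.2 (GRCm38, Ensembl release 85) summed by gene with tximport 1.2.0, and used DESeq2 1.26.0 for their own tests. Columns were assigned to groups by name, 0 had no group, and their letters are in no label, so mice were not paired.

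Counts were rounded and tested with edgeR 4.0.16 (R 4.3.3, quasi-likelihood test, not robust, with TMM factors and 4 groups in 1 model). The filter kept 11319 genes whose mean log2 CPM reached 1, with Benjamini-Hochberg adjustment over them and a threshold of 0.05. The common biological coefficient of variation was 9.13%. Mice were taken as separate animals, and the tests weigh group differences against the spread between mice. This spread was estimated over all 4 groups together and moderated over genes. WT VEH, with 2 mice, thus borrows its spread largely from the other groups, and groups of unlike spread are treated alike. Positions and lengths are from GENCODE mouse release 21, and 22315 of 22608 identifiers matched. Log2 CPM for correlations had a prior count of 2. Ratios were compared by exact 2-sided permutation tests.

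The 10 enzymes and all lists were chosen with earlier results of these data known. Named besides the 10 are, per list, the called genes with the lowest and highest log2 fold-change in CD VEH versus WT VEH and the largest interaction, genes that overlap a member, and the 5 genes most alike. From the list of peroxisomal genes, 1 is not reported here. Acacb, Acsl1 and the genes given only as members of a list are outside that rule.

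Alternatives were DESeq2 1.42.0, RLE and upper quartile factors, only the compared groups, no filter, a minimum of 10 counts in each mouse, mitochondrial-genome genes left out, a length offset (loess, span 0.5), an adjusted p under 0.01 and each mouse left out. The ratio to cardiomyocyte markers, the second-longest transcript and the count of markers without 1 CD VEH mouse were chosen after seeing the data. On simulated counts for 11319 genes, edgeR recovered 68 of 100 genes changed by 0.5 and 99 of 100 changed by 1 on the log2 scale in CD VEH versus WT VEH, with 6.7% false calls. In the interaction it recovered 22 and 90 of 100, with 5.08% false calls. No other genes were changed, and each gene had the same spread in all groups. In the data far more genes passed, and the enzymes' spread differed between groups, so these recoveries do not carry over to them.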

Additional observations from a re-analysis of the deposited data

Results flagged for a closer look

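For 17 genes named here by rule, the difference between JZL184 and vehicle was not the same in CD and WT mice. This is by a test of the interaction itself (edgeR adjusted p under 0.05). The 17 are 5 of the 10 enzymes and leading genes of the related lists. The leading genes were picked by a called interaction or a called change in CD VEH versus WT VEH in these same data. That they pass follows largely from this choice, and the count of 17 is not a result. Among the 10 enzymes, the log2 interaction was 0.80 for Cpt1b, 0.63 for Hadha, 0.54 for Acadl, 0.50 for Cpt2 and 0.50 for Acadm. In each of these 5 the mean was higher with JZL184 in CD mice and lower with JZL184 in WT mice. Among the related genes it was 0.63 for Acads, 0.56 for Acad9, 0.49 for Etfdh, 0.88 for Acsl6, 0.79 for Ivd, 0.62 for Abcd3, 1.02 for Ogdh, 0.57 for Dlst and 1.58 for Ppara. It was negative for Acsl5, at -1.13, for Pparg, at -1.18, and for Cd36, at -0.31.

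These values rest on 2 WT VEH mice, and 25.3% of all tested genes had a positive and 26.2% a negative interaction that passed. Without WT VEH mouse D the adjusted p was 0.089 for Cpt2, 0.073 for Acadm and 0.0626 for Etfdh, and Acadm also missed the threshold without 5 other mice in turn. Cd36 missed it in 12 of 19 alternatives, up to 0.113 without WT VEH mouse C. No group has the 4 mice that a check for a single distant mouse needs.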

How the results depend on the processing

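Counts of called enzymes moved by over 1.5 times as follows. With an adjusted p under 0.01, 1 enzyme was called in CD VEH versus WT VEH, 1 in CD JZL184 versus CD VEH, 1 in WT JZL184 versus WT VEH, 1 in CD JZL184 versus WT JZL184 and 3 in the interaction. Without a filter, 1 was called in CD VEH versus WT VEH and 1 in CD JZL184 versus CD VEH, with upper quartile factors 1 in CD VEH versus WT VEH, and with only the compared groups 1 in WT JZL184 versus WT VEH. DESeq2 called 5 in CD JZL184 versus CD VEH and 7 in CD JZL184 versus WT JZL184, and the length offset 5 in CD JZL184 versus CD VEH, 6 in CD JZL184 versus WT JZL184 and 8 in the interaction. Apart from the stricter threshold, the cause was not tested. Leaving out 1 mouse gave 0 to 4 calls in CD VEH versus WT VEH, 1 to 5 in CD JZL184 versus CD VEH, 1 to 7 in WT JZL184 versus WT VEH, 1 to 7 in CD JZL184 versus WT JZL184 and 3 to 9 in the interaction. The count in CD JZL184 versus WT VEH was 0 under all 14 alternatives.

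Of the enzymes' log2 fold-changes, 812 of 910 values under alternatives kept direction and side of the threshold, 50 no longer passed, 39 passed instead, and 9 changed sign, all with 1 mouse left out. They ranged from -0.13 to 0.0038 for Acaa2 in CD VEH versus WT VEH, -0.20 to 0.0697 for Cpt1a in CD JZL184 versus CD VEH and -0.26 to 0.0291 for Hadhb in WT JZL184 versus WT VEH. In CD JZL184 versus WT VEH the ranges were -0.0412 to 0.23 for Cpt1a, -0.10 to 0.0414 for Cpt1b, -0.0194 to 0.0705 for Slc25a20 and -0.10 to 0.15 for Cpt2. The share of Cpt1a differed by -0.0393 to 0.797 percentage points there, and the other ratios kept their direction. None of the values that changed sign passed the test, whereas the -0.26 of Hadhb, without WT JZL184 mouse A, did (adjusted p = 0.0364).

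With a mouse left out of WT VEH, the lone mouse is assumed to vary like the other groups. No paired analysis was possible because the columns carry no replicate number. Some of their letters recur across groups, such as A, C and E in both CD groups, but they are in no sample label, and nothing says that they mark shared animals or litters. The lowest level of an enzyme was 28.7 CPM. At 2 or 3 mice a group the simulation recovered 22 of 100 interactions of 0.5. It changed few genes and gave each gene the same spread in all groups, so this recovery does not carry over to these data.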
